A study of Mus musculus with 16 samples.

Results

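The 37 genes described here carry out autophagy and mitophagy. They were chosen by symbol for their known roles, and all 37 were found in both deposited tables, among 17539 genes listed in quadriceps and 18000 in brown fat. The series compared male C57BL/6 mice of 10 weeks that were homozygous for a Ppargc1a allele, given as uORF-TAA, with wild-type littermates, housed at room temperature. Ppargc1a encodes PGC-1alpha, a transcriptional coactivator of mitochondrial genes, and a uORF is a short reading frame upstream of the main coding sequence. RNA of quadriceps muscle and of brown adipose tissue was sequenced as 4 libraries per genotype in each tissue, 16 in all. The labels name no Cre, transgene or treatment in any group, and do not tie the tissues to individual mice.

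Macroautophagy encloses cytoplasm in a double membrane, the autophagosome, which then fuses with a lysosome. The ULK kinase complex starts the process, the Beclin 1 lipid kinase complex marks the membrane, and ATG2, ATG9 and WIPI proteins help it grow. Ubiquitin-like conjugation systems attach proteins of the ATG8 family (LC3 and GABARAP) to the membrane, where cargo receptors such as p62 bind them. Mitophagy is the removal of mitochondria by this route, through marking by the kinase PINK1 or through receptors in the outer mitochondrial membrane. In muscle, FoxO factors and TFEB are known activators of autophagy genes, and in thermogenic fat mitophagy is known to lower mitochondrial content when thermogenic stimulation ends.

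No values per library were analysed here, so each gene is described by its mean normalized count over the 8 libraries of a tissue and by the authors' comparison of the genotypes. Estimated library depth was 11.4 to 31.8 M counts (M, mega) for quadriceps and 11.0 to 17.8 M for brown fat. All members were well covered, the lowest mean being 77.5 for Atg16l2 in quadriceps. Fold changes are uORF-TAA over wild type, on the unproven reading that the genotype named first in a table is its numerator, and if that fails for a tissue all its directions turn over. Errors are the deposited standard errors (SE). The fold changes behave as shrunken towards 0, as do the 95% intervals, which take the normal quantile times the SE to each side. For Ppargc1a itself the authors' deposited table held 0.058 ± 0.13 (SE) in quadriceps and 0.0016 ± 0.11 (SE) in brown fat on the log2 scale, and its mRNA level does not test the labels, since the allele is named for a change in the uORF. The tissues matched their labels. The summed level of 6 skeletal muscle markers, Myh4 and Acta1 among them, was 169155 CPM (mean normalized counts scaled so that the table sums to 1000000) in quadriceps, and that of 6 brown fat markers, Ucp1 and Cidea among them, was 23290 CPM in brown fat. RNA of muscle markers was also present in brown fat, where the same 6 muscle markers summed to 7883 CPM, and brown fat markers summed to 321 CPM in quadriceps.

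TFEB binds an E-box with the core CACGTG in promoters of autophagy and lysosome genes. The windows that hold this core are shown because they mark the members that carry the letters of such a site. RefSeq promoter windows (GRCm38.p6, 250 bases before to 50 after the annotated start) matched 31 of the 37 members, with 37 windows. Atg12, Atg16l1, Becn1, Bnip3l and Map1lc3a were among those with no entry. The core, which reads the same on both strands, was found in windows of 5 members, which is 13.5% of the 37 windows against 7.15% of all 32851 promoter windows. Capitals mark the core in the lines that follow, each written 5′ to 3′ on the strand of the gene.
Atg3, second site (chr16:45158748-45158773, plus strand, 68 bases before the start): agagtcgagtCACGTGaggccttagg
Atg3, first site (chr16:45158725-45158750, plus strand, 91 bases before the start): ctccttttgtCACGTGtcctgggaga
Atg7 (chr6:114670954-114670979, plus strand, 129 bases before the start): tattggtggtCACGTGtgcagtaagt
Bnip3 (chr7:138909599-138909624, minus strand, 105 bases before the start): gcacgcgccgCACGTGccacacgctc
Atg5 (chr10:44268315-44268340, plus strand, 11 bases before the start): gagcgcttgcCACGTGgtcttggtga
Atg14 (chr14:47568420-47568445, minus strand, spanning the start): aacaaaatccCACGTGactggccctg
The longer palindrome TCACGTGA, which contains the core, was found at the second Atg3 site and in 0.974% of all windows. GTAAACA, a sequence bound by FoxO factors, was searched on both strands and was not in the member windows, against 3.65% of all windows. TCAAGGTCA, bound by the PGC-1alpha partner ERR, was likewise not in the member windows, against 0.423% of all windows. These matches describe letters in a short window and are not binding sites shown by these data.

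Levels per gene are given as CPM per kb, that is the CPM value divided by the kilobases of the principal GENCODE M21 transcript. They have no spread per library and were not tested. In quadriceps the highest levels were those of Sqstm1, the cargo receptor p62, at 485 CPM per kb, Bnip3, an outer membrane mitophagy receptor, at 319, and Gabarapl1, an ATG8 protein, at 204. Pink1, the kinase that marks damaged mitochondria, followed at 195. In brown fat the same genes except Pink1 led in another order, with Bnip3 at 665, Gabarapl1 at 586 and Sqstm1 at 436 CPM per kb. Gabarap was the fourth in brown fat, at 311. Atg16l2, a paralog of the scaffold ATG16L1, was the lowest member in both, at 0.570 and 1.43.

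**Figure D1:**
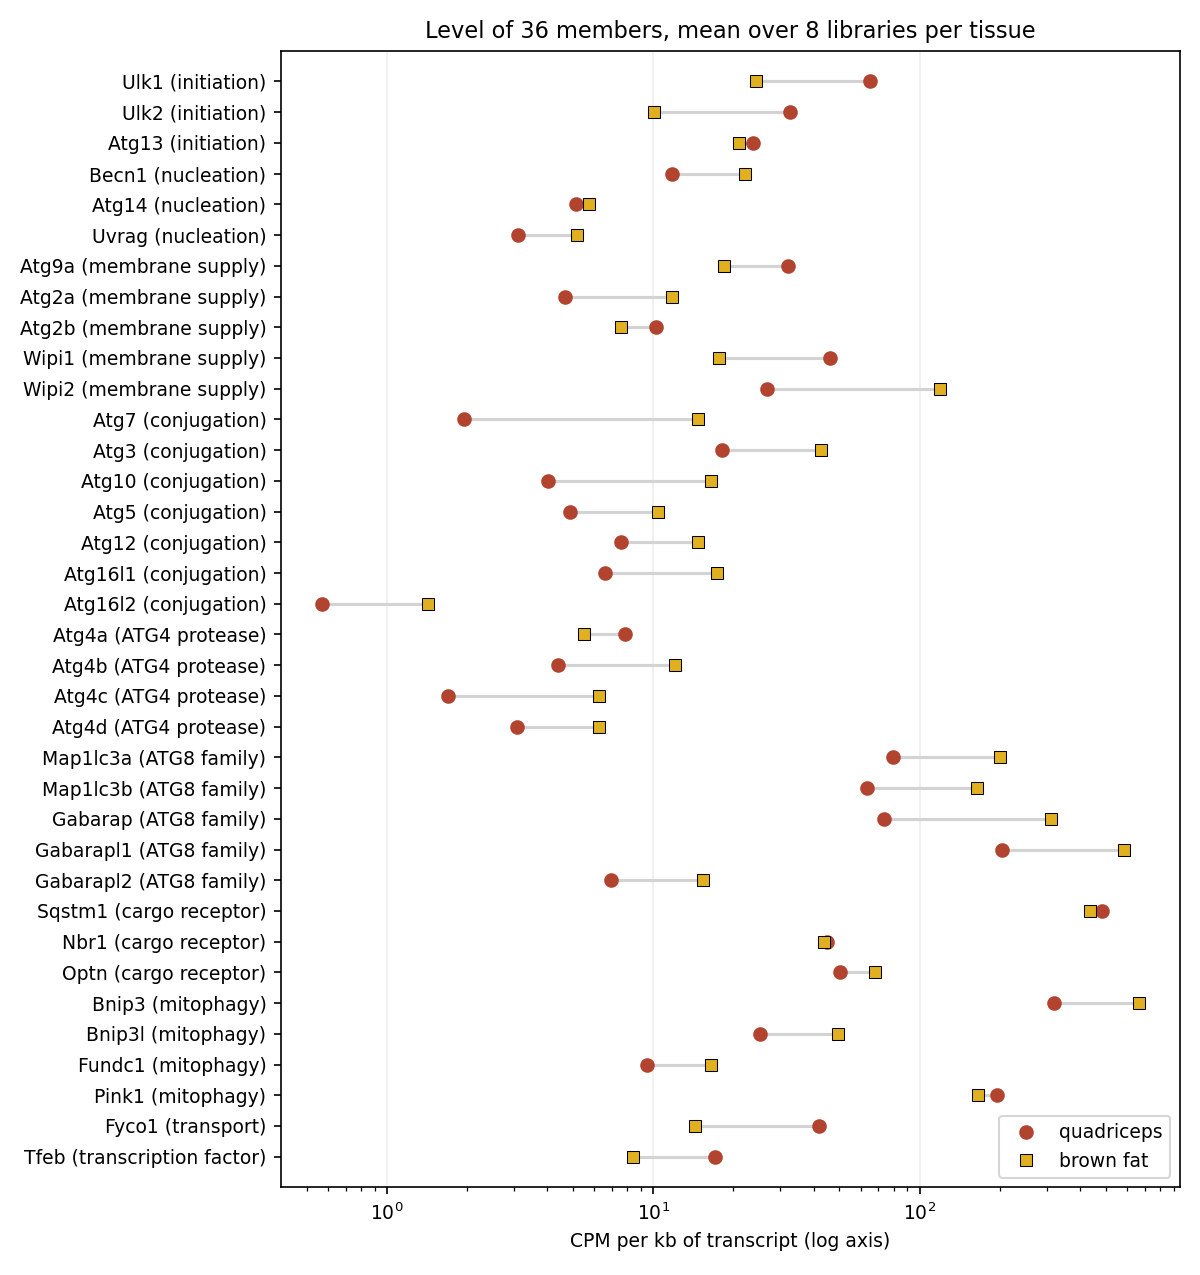
Level of 36 members in quadriceps (circles) and brown fat (squares), as CPM per kb of transcript on a log axis, with members grouped by role. Each point is a mean over 8 libraries without a spread, and levels run from 0.570 for Atg16l2 in quadriceps to 665 for Bnip3 in brown fat.

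Among paralogs, the ratio within a tissue does not depend on how the 2 tables were scaled. The WIPI proteins bind the lipid made by the Beclin 1 complex. Wipi1 stood at 1.73 times Wipi2 per kb in quadriceps and at 0.148 times in brown fat, so the leading paralog differed between the tissues and the ratio by 11.7-fold. For the lipid transfer proteins, Atg2a was at 0.455 times Atg2b in quadriceps and at 1.55 times in brown fat. For the proteases that process ATG8 proteins, Atg4b was at 0.558 times Atg4a in quadriceps and at 2.19 times in brown fat, although 52.0% of the 75-base words of the Atg4a transcript also occur in other genes, mainly the pseudogene Atg4a-ps. Of the ATG8 proteins, Gabarap was at 10.6 times Gabarapl2 in quadriceps and at 20.3 times in brown fat. The ratios of 4 further pairs were nearer to each other in the tissues, and the pairs named here were chosen after their values were seen. Ulk1 was at 1.99 and 2.40 times Ulk2, Map1lc3b at 0.795 and 0.824 times Map1lc3a, Bnip3 at 12.6 and 13.5 times Bnip3l, and Sqstm1 at 10.8 and 9.98 times Nbr1, in quadriceps and brown fat respectively.

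The tables were normalized separately, so levels across tissues are given relative to the median gene. That median, over the 7837 genes whose means reached 100 in both, was 1.78-fold higher in brown fat by CPM. The 20 most abundant genes took 35.5% of the sum in quadriceps and 13.3% in brown fat. Relative to the median gene, Ulk2 was 5.74-fold, Fyco1 5.16-fold, Ulk1 4.77-fold, Wipi1 4.64-fold and Tfeb 3.59-fold higher in quadriceps. ULK1 and ULK2 are the kinases that start autophagy, FYCO1 links autophagosomes to kinesin for transport along microtubules, and TFEB is a transcription factor of the pathway. On the same scale Atg7, the activating enzyme of both conjugation systems, was 4.26-fold higher in brown fat, Wipi2 2.51-fold, Gabarap 2.38-fold, the conjugating enzyme gene Atg10 2.31-fold and Atg4c 2.08-fold. These 10 genes kept their direction by CPM and without the 20 most abundant genes. Those scalings shift every gene by the same factor, so the kept direction follows from the values above and is not separate evidence. In bulk tissue, fewer cells of a type and less RNA per cell cannot be told apart.

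Between the genotypes the members with the smallest unadjusted p-values were Fyco1 and Atg4c, higher in uORF-TAA quadriceps, and Map1lc3b and Atg13, lower there, and none of them passed after adjustment. In quadriceps 0 of 37 members had a DESeq2 adjusted p under 0.05 as deposited, where 0.00% of all 17521 genes with a p-value passed. At an unadjusted p under 0.05 there were 4 members (10.8%), 2 higher and 2 lower in uORF-TAA. The share of all genes was 2.00% (0.942% higher and 1.06% lower), and 2.67% among genes whose mean reached 100. In quadriceps 26 of 37 members lay below 0, or 70.3%, against 48.3% of all genes, and the median log2 fold change was -0.029 per the authors' deposited table, against 0.0024 for the whole table. In brown fat 0 of 37 members had a DESeq2 adjusted p under 0.05 as deposited, where 0.0863% of 9272 genes did. No member had an unadjusted p under 0.05 there, against 2.07% of all genes (0.918% higher and 1.15% lower), or 2.82% among those whose mean reached 100. In brown fat 22 of 37 members, or 59.5%, lay below 0 against 48.8% of all genes, with medians of -0.033 and 0.0015 per the authors' deposited table.

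**Figure D2:**
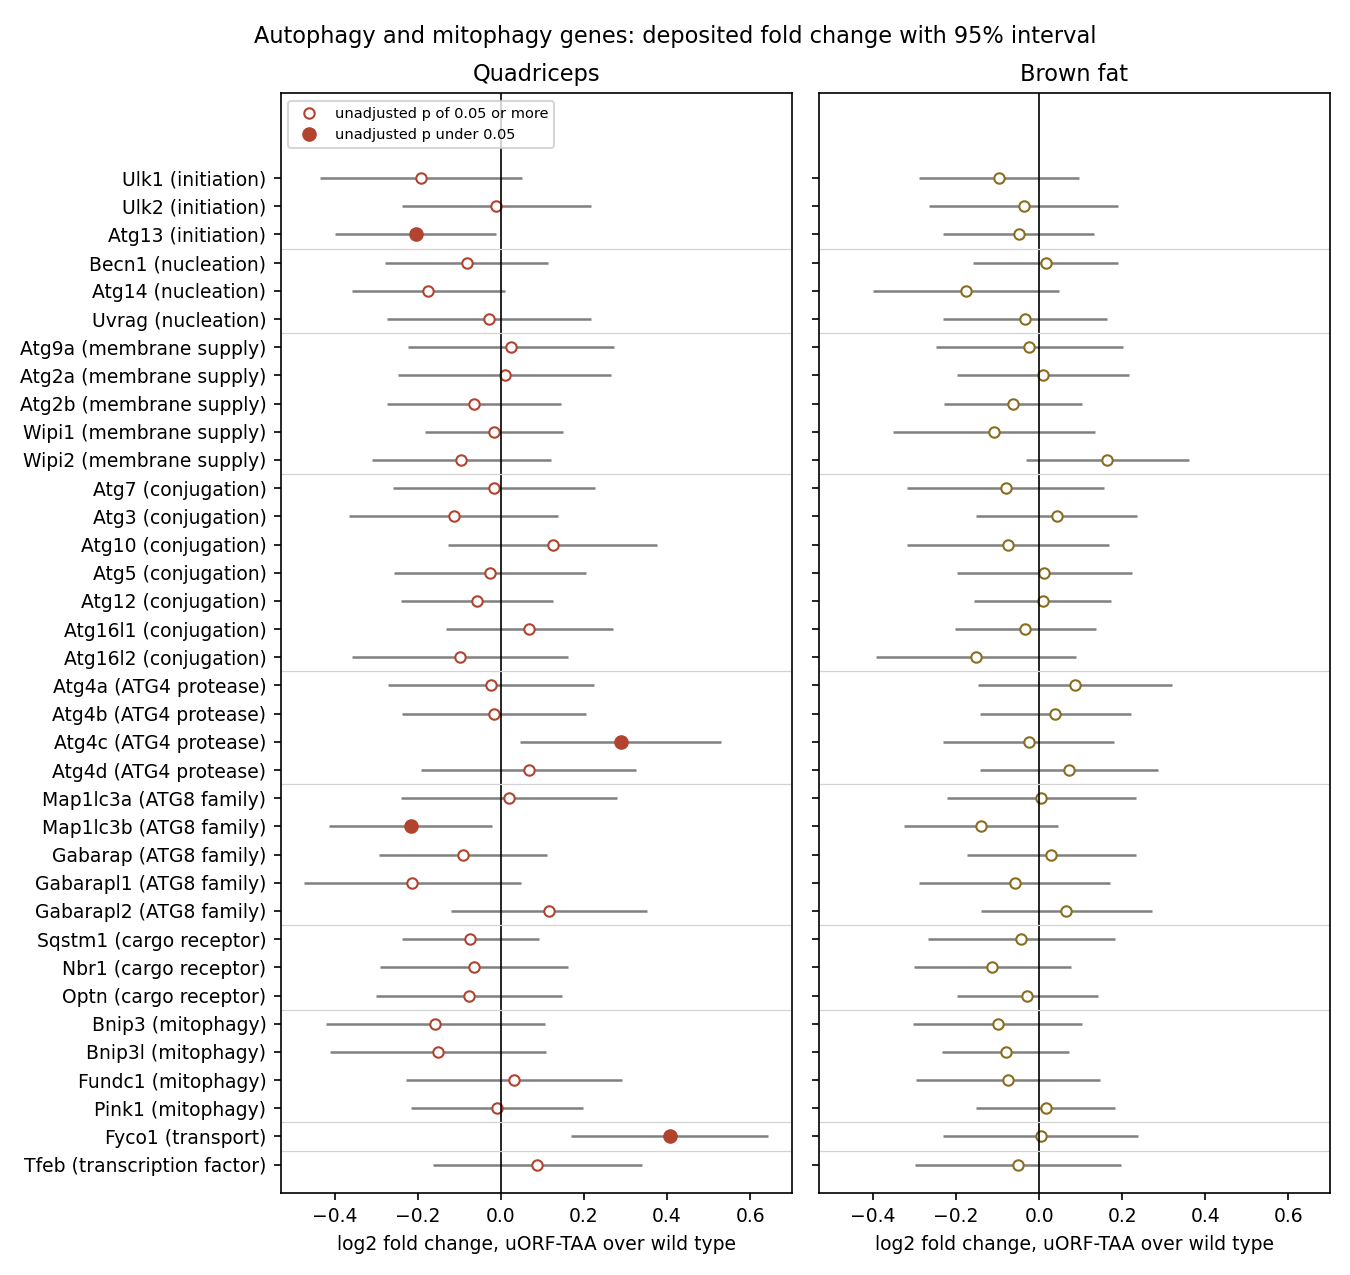
Deposited log2 fold change of 36 members, uORF-TAA over wild type, in quadriceps (left) and brown fat (right), with lines for the 95% interval from the SE. Filled points have an unadjusted p under 0.05, namely Fyco1, Atg4c, Map1lc3b and Atg13 in quadriceps, and 0 of 37 in brown fat.

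The intervals lie on the shrunken scale, where genes with very few counts also have small SEs. They therefore describe the shrunken values and do not bound how large an unshrunken change could have been missed. In brown fat all 37 intervals lay within 0.4 log2 units of 0, and in quadriceps 30 of 37 did. The widest bounds in quadriceps were 0.64 above for Fyco1 and -0.47 below for Gabarapl1. In brown fat they were 0.36 for Wipi2 and -0.40 for Atg14.

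The largest value among the members was that of Fyco1 in quadriceps, with a log2 fold change of 0.41 ± 0.12 (SE) at a mean normalized count of 6978 per the authors' deposited table. Its unadjusted p was 0.000801, the 14th smallest of the table, and its DESeq2 adjusted p was 0.942, so it did not pass. The interval ran from 0.17 to 0.64. The brown fat side of the authors' deposited table gave Fyco1 a log2 fold change of 0.0038 ± 0.12 (SE) at a mean of 1462. The difference between the tissues was 0.40 ± 0.17 (SE), with an unadjusted p of 0.0181 by the normal test on that difference and an adjusted p of 1.00. The gene Cxcr6 overlaps Fyco1 on the other strand in GENCODE and had a mean normalized count of 0.325 in quadriceps per the authors' deposited table. On the same strand AC165425.1 overlaps Fyco1 and shares 4.17% of its 75-base words, and the part of these overlaps in the Fyco1 value was not tested.

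In the ULK complex all 3 members lay below 0 in quadriceps, where 48.3% of all genes did, while the components that are not members lay above it, at 0.26 ± 0.13 (SE) for Atg101 and 0.017 ± 0.13 (SE) for Rb1cc1 per the authors' deposited table. Atg13, the adaptor that holds the kinase to its scaffold, had a log2 fold change of -0.21 ± 0.099 (SE), a mean of 1762 and an unadjusted p of 0.0379 per the authors' deposited table. There Ulk1 was at -0.19 ± 0.12 (SE) and Ulk2 at -0.011. The brown fat values per the authors' deposited table were -0.050 for Atg13, -0.097 for Ulk1 and -0.038 for Ulk2. Their DESeq2 adjusted p was 1.00 in both tissues.

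Beclin 1 partners set where the lipid kinase acts. Atg14, which directs it to the forming autophagosome, had nearly the same value in the tissues of the authors' deposited table, -0.17 ± 0.094 (SE) in quadriceps (unadjusted p = 0.0622) and -0.18 ± 0.11 (SE) in brown fat (0.123). Uvrag, an alternative partner, was at -0.029 and -0.034, and Becn1 itself at -0.083 and 0.016 per the authors' deposited table. GENCODE places 43.1% of the 75-base words of the Becn1 transcript also in Cntd1 on the other strand, which matters only if the counting ignored strand.

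Genes for membrane supply held the highest member value of brown fat. Across Atg9a, Atg2a, Atg2b, Wipi1 and Wipi2 the log2 fold changes lay between -0.095 and 0.024 in quadriceps and between -0.11 and 0.16 in brown fat per the authors' deposited table. The upper value belonged to Wipi2, which had the smallest unadjusted p of the members in brown fat, 0.101, at 0.16 ± 0.10 (SE) per the authors' deposited table. The quadriceps value of Wipi2 was -0.095 ± 0.11 (SE), and the difference between the tissues was -0.26 ± 0.15 (SE) with an unadjusted p of 0.0815. Atg9a, a transmembrane protein that seeds the membrane, was at 0.024 in quadriceps, while Ankzf1, which overlaps it on the other strand, stood at -0.40 there per the authors' deposited table. Of the 75-base words of the Atg9a transcript, 43.6% also belong to Gm29253 on the same strand, so its count is uncertain.

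The conjugation enzymes and their scaffold ranged from -0.11 for Atg3 to 0.12 for Atg10 in quadriceps per the authors' deposited table, and 0 of 7 had an unadjusted p under 0.05. In brown fat these 7 genes ranged from -0.15 for Atg16l2 to 0.042 for Atg3 per the authors' deposited table. ATG7 and ATG3 hand ATG8 proteins on to the lipid, ATG10 joins ATG12 to ATG5, and ATG16L1 brings that pair to the membrane. Atg7 was at -0.017 and -0.081, Atg5 at -0.026 and 0.013, Atg12 at -0.058 and 0.0082, and Atg16l1 at 0.068 and -0.033, in quadriceps and brown fat of the authors' deposited table.

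Of the ATG4 proteases, Atg4c stood at a log2 fold change of 0.29 ± 0.12 (SE) in quadriceps, an unadjusted p of 0.0195 and a mean of 113, among the lower means of the members, per the authors' deposited table. Its brown fat value there was -0.025 ± 0.11 (SE). The difference between the tissues was 0.31 ± 0.16 (SE) with an unadjusted p of 0.0531 and an adjusted p of 1.00. The other proteases Atg4a, Atg4b and Atg4d lay between -0.024 and 0.067 in quadriceps and between 0.039 and 0.085 in brown fat per the authors' deposited table.

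Within the ATG8 family the values in quadriceps were mixed. Map1lc3b, which encodes LC3B, the protein used as a marker of autophagosomes, had a log2 fold change of -0.22 ± 0.10 (SE), a mean of 3376 and an unadjusted p of 0.0301 per the authors' deposited table. There Gabarapl1 stood at -0.21 ± 0.13 (SE) and Gabarap at -0.091 ± 0.10 (SE), while Map1lc3a was at 0.019 and Gabarapl2 at 0.12 ± 0.12 (SE). For brown fat the values of the authors' deposited table were, for Map1lc3b, -0.14 ± 0.095 (SE), for Gabarapl1 -0.059, for Gabarap 0.029, for Map1lc3a 0.0055 and for Gabarapl2 0.065. Pseudogenes share 10.9% of the 75-base words of the Map1lc3b transcript and 13.3% of those of Gabarapl2, so part of their reads may be split or lost.

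The cargo receptors Sqstm1, Nbr1 and Optn varied little in quadriceps, from -0.076 to -0.066 per the authors' deposited table. Sqstm1, the most abundant member there by mean normalized count at 20787, had -0.074 ± 0.084 (SE), the smallest SE of the members in quadriceps. In brown fat Nbr1 was at -0.11 ± 0.096 (SE), Sqstm1 at -0.043 ± 0.11 (SE) and Optn at -0.028 ± 0.087 (SE) per the authors' deposited table. All 3 genes lay below 0 in both tissues, and each interval included 0. Among the 37 members 70.3% in quadriceps and 59.5% in brown fat lay below 0, and among all genes 48.3% and 48.8%.

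Mitophagy receptors gave similar values for the close paralogs Bnip3 and Bnip3l, at -0.16 ± 0.13 (SE) and -0.15 ± 0.13 (SE) in quadriceps and -0.10 ± 0.10 (SE) and -0.081 ± 0.078 (SE) in brown fat per the authors' deposited table. Fundc1, a receptor linked to hypoxia, was at 0.031 and -0.074 there. Pink1 was near 0 at a mean of 9748 in quadriceps and 5041 in brown fat, with -0.0095 ± 0.11 (SE) and 0.015 ± 0.085 (SE) per the authors' deposited table. Of the 75-base words of the Bnip3 transcript, 46.3% occur in other genes, among them pseudogenes, and for Bnip3l 20.6% occur in Bnip3l-ps. Tfeb was at 0.088 ± 0.13 (SE) in quadriceps and -0.051 ± 0.13 (SE) in brown fat per the authors' deposited table.

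**Figure D3:**
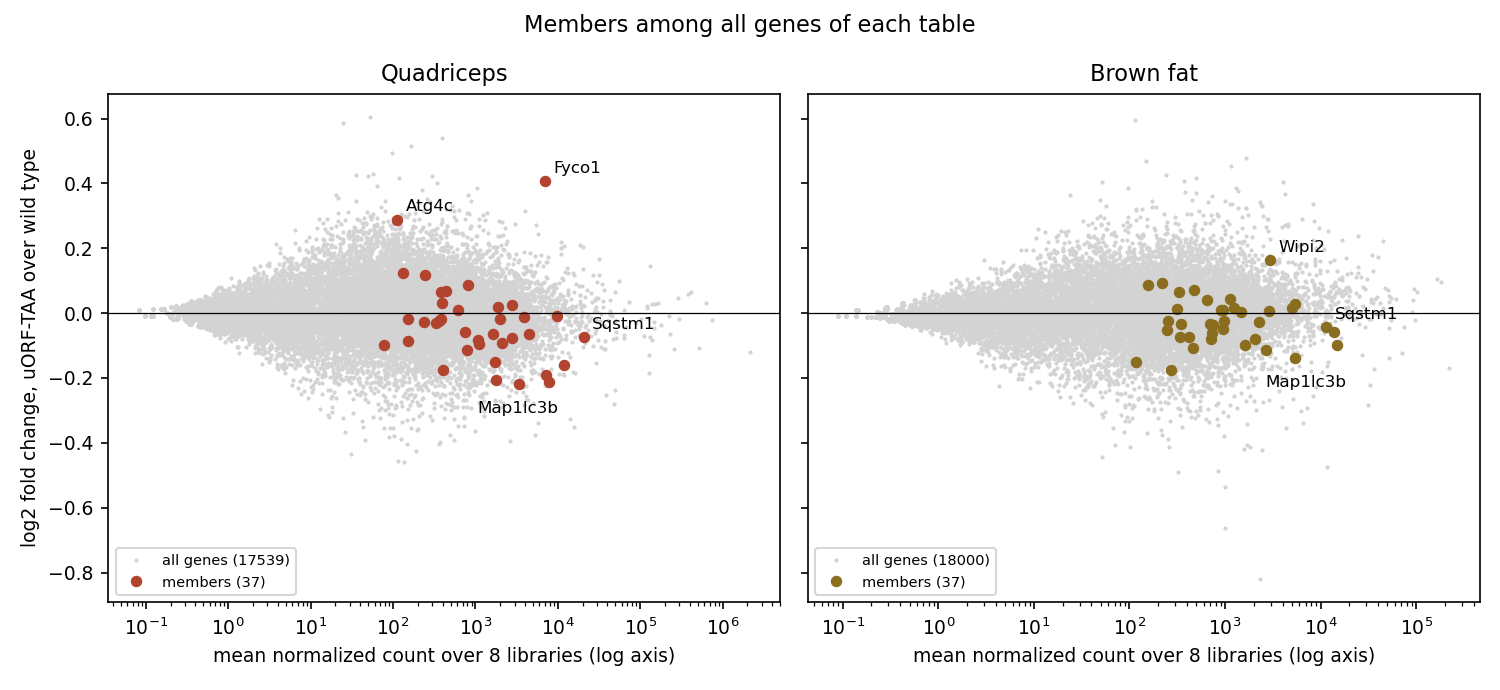
Log2 fold change (uORF-TAA over wild type) against mean normalized count on a log axis, for all genes (grey) and the 37 members (coloured) in quadriceps (left) and brown fat (right). Fyco1 in quadriceps, at 0.41 and a mean of 6978, lies apart from the other members, which run from -0.22 to 0.29 there.

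In a direct comparison of the tissues, 0 of 37 members differed at an adjusted p of 0.05 by the normal test on the difference in fold change, as did 0.00% of all 16844 genes tested. At an unadjusted p under 0.05 there was 1 member, Fyco1, against 1.16% of all genes. The test treats the tissues as independent.

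Other genes of the pathway were listed by role. For comparison with each list, 2.00% of all genes in quadriceps and 2.07% in brown fat had an unadjusted DESeq2 p under 0.05. Of 19 further autophagy genes 0 passed in the deposited DESeq2 test in either tissue. An adjusted p was given for 18 of them in brown fat. Atg101, which stabilizes ATG13, had the one unadjusted p under 0.05 in quadriceps (0.0454), with a log2 fold change of 0.26 ± 0.13 (SE) per the authors' deposited table, opposite in sign to Atg13. In brown fat Atg101 was at -0.11 ± 0.12 (SE) per the authors' deposited table. The median of this list was 0.012 in quadriceps and -0.0053 in brown fat, with 12 and 7 of 19 above 0. The further cargo receptors had medians of -0.073 over 10 genes in quadriceps and -0.031 over 11 in brown fat. Calcoco1 was at -0.20 ± 0.10 (SE) and Stbd1, a glycogen receptor, at 0.23 ± 0.13 (SE) in quadriceps per the authors' deposited table. The 21 further mitophagy genes, of which Ambra1 is also in the list of 19, had medians of 0.026 and 0.029, with 13 and 15 above 0. For these receptor and mitophagy lists 0 genes were past an adjusted p of 0.05 in DESeq2. In either tissue 0 had an unadjusted p under 0.05. An adjusted p was given for 10 of the 11 receptor genes in brown fat.

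Lysosomal genes include many TFEB targets. Of 39 genes 25 lay below 0 in quadriceps, or 64.1% against 48.3% of all genes, and 19 in brown fat. The medians were -0.024 and 0.0020. Of the 39 genes 0 had an adjusted or an unadjusted p under 0.05 in DESeq2 as deposited. An adjusted p was given for 37 of them in brown fat. Npc1, which exports cholesterol from lysosomes, was at -0.19 ± 0.13 (SE) in quadriceps and -0.20 ± 0.12 (SE) in brown fat per the authors' deposited table. In brown fat Naglu was at 0.18 ± 0.11 (SE) and the protease gene Ctsl at -0.16 ± 0.12 (SE) per the authors' deposited table. Of the 39 genes 20 lay above 0 there. The proton pump gene Atp6v1a was at 0.15 ± 0.097 (SE) in quadriceps per the authors' deposited table.

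Among upstream regulators of autophagy, 25 genes were listed, of which 22 had an adjusted p in brown fat. Of these 25 genes 0 had an adjusted p under 0.05 in DESeq2 as deposited, and 2 in each tissue had an unadjusted p under 0.05, all lower in uORF-TAA. Among all genes 1.06% in quadriceps and 1.15% in brown fat were lower at that threshold. Foxo1, an activator of autophagy genes, was at -0.27 ± 0.13 (SE) in quadriceps and -0.41 ± 0.12 (SE) in brown fat per the authors' deposited table, the latter with an adjusted p of 0.291. Ddit4, an inhibitor of mTORC1, stood at -0.34 ± 0.13 (SE) in quadriceps and -0.061 ± 0.11 (SE) in brown fat per the authors' deposited table. Sesn1, another inhibitor of mTORC1 signalling, stood at -0.20 ± 0.13 (SE) and -0.38 ± 0.13 (SE) there. Sesn3 lay above 0, at 0.22 ± 0.13 (SE) in quadriceps and 0.022 ± 0.12 (SE) in brown fat per the authors' deposited table. The 25 genes had medians of -0.023 in quadriceps and -0.0078 in brown fat, with 8 and 11 above 0. Of 11 genes known as FoxO-responsive in muscle, 10 are members. In this list 10 lay below 0 in quadriceps and 8 in brown fat, with medians of -0.15 and -0.059. Among the 37 members 70.3% and 59.5% lay below 0, and among all genes 48.3% and 48.8%. The list mostly repeats member values, so it is not separate evidence, and a part of FoxO factors was not tested. In that list 1 gene, Map1lc3b, had an unadjusted p under 0.05 in quadriceps and 0 did in brown fat, and 0 passed an adjusted p of 0.05 in DESeq2.

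**Figure D4:**
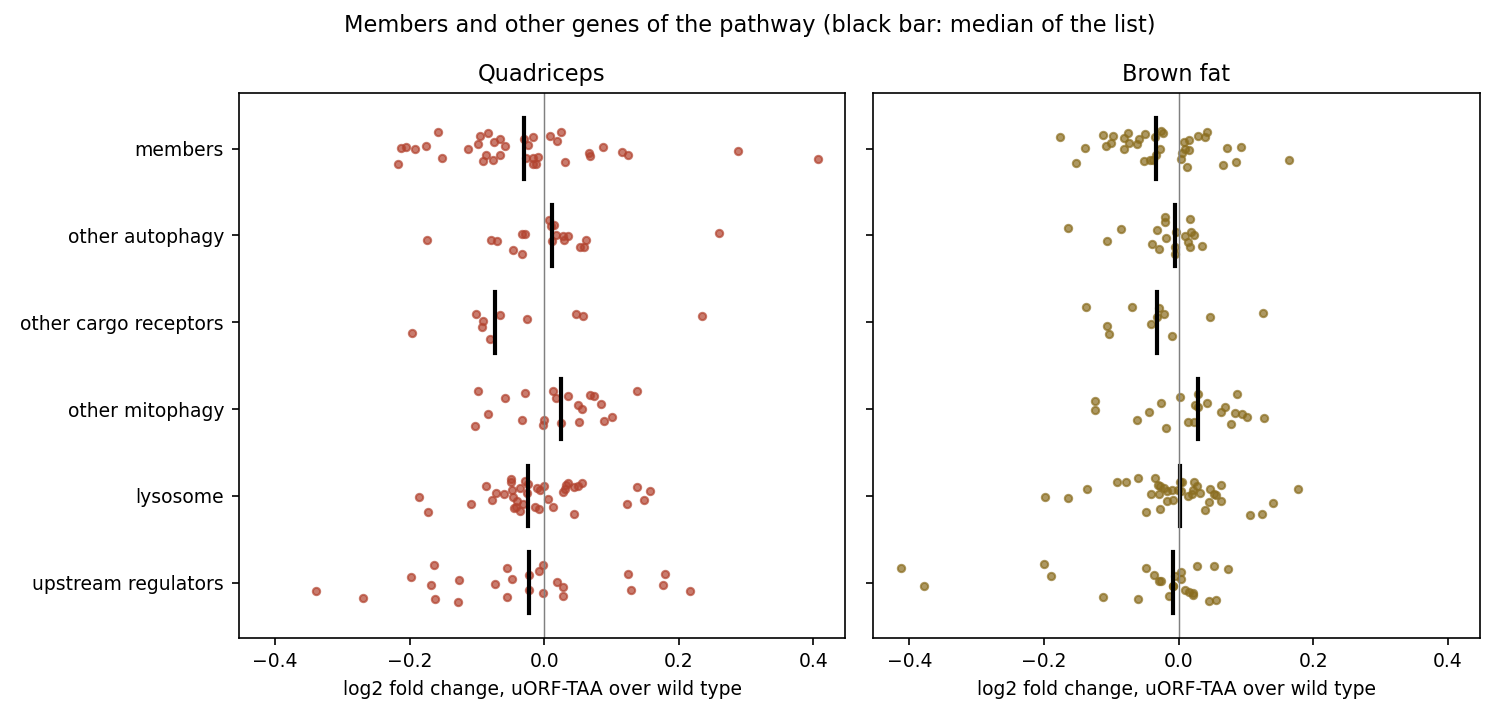
Log2 fold change (uORF-TAA over wild type) of each gene in the members, other autophagy genes, other cargo receptors, other mitophagy genes, lysosomal genes and upstream regulators (the FoxO-responsive list is not drawn), in quadriceps (left) and brown fat (right), spread vertically at random within a list. Black bars are the medians of these lists, which run from -0.073 to 0.029, and Foxo1 and Sesn1 in brown fat stand lowest at -0.41 and -0.38.

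Markers of other cells were read in the same way. In quadriceps 5 mural cell markers had a median log2 fold change of -0.29, 4 lying below 0 and 3 of them with an unadjusted p under 0.05. Of all genes 1.06% were lower at that threshold there. The 6 glial markers all lay below 0 there, with a median of -0.17. In brown fat the medians of these lists were 0.095 and -0.14. Endothelial markers had medians of -0.022 in quadriceps and 0.013 in brown fat, fibroblast markers 0.045 and 0.079, and T and B cell markers -0.043 and 0.053. Brown fat markers had medians of 0.064 and 0.087. The 6 macrophage markers measured, from cells rich in lysosomes, had medians of -0.0081 and -0.025 and summed to 74.6 CPM in quadriceps and 180.1 in brown fat. Skeletal muscle markers had a median of -0.00076 in quadriceps and -0.0087 in brown fat. In brown fat their median SE was 0.068, against 0.11 for all genes whose mean reached 100. Since shrinkage lowers both the value and its SE, this median does not show that muscle RNA was balanced between the genotypes. The part of these cells in the member values was not tested.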

How the data were processed

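The labels' protocols describe stranded mRNA libraries from flash-frozen tissue, with single-end reads. Tools named by the submitters' processing notes are STAR 2.5.1b and DESeq2 1.10.1, with the build mm9 and no roles. Read counter and annotation: not given in the sources used here. The series' design text gives 4 mice per genotype.

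Per the file headers, the authors' tables hold a mean normalized count per gene (used as a signal), a log2 fold change with its SE, a Wald statistic (used as a score), a p-value and an adjusted p-value. The deposited Wald statistic equals the log2 fold change over its SE. Shrinkage is inferred from the median SE of genes with a mean under 1, 0.0223 in quadriceps and 0.0181 in brown fat. Brown fat signs were turned so that uORF-TAA is the numerator. Adjusted p-values exist for 17521 genes in quadriceps and 9272 of 17973 with a p-value in brown fat, all members included.

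Tissue differences were divided by the root of the summed squared SEs, with a two-sided normal p and Benjamini-Hochberg adjustment over 16844 genes. The calculation was run on simulated normal values with the deposited SEs, which cannot show whether the test suits these shrunken fold changes. Depth came from genes with a single read. Transcript lengths, overlaps and shared 75-base words came from GENCODE M21 (GRCm38); no coordinates were carried to mm9. The values of 1 member are not reported here on their own, and it stays in the counts and medians over the 37. Python 3.11.15 and scipy 1.17.1 were used. Named genes were the members with an unadjusted p under 0.05, the 6 of smallest p per tissue, the other members by value or range, and up to 3 genes per further list and tissue. Ankzf1, Cxcr6, AC165425.1, Rb1cc1 and values given for a list gene in its second tissue are outside that rule. The members and lists were chosen with earlier results of these data known.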

Additional observations from a re-analysis of the deposited data

How the results depend on the processing

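The count of 0 members past an adjusted p of 0.05 held in both tissues when adjusted over every gene with a p, at a threshold of 0.10, among genes whose mean reached 10 or 100, and with Wald statistics centred and divided by their robust SD. With that robust scaling Fyco1 in quadriceps had an adjusted p of 0.0836, and the members with an unadjusted p under 0.05 were 5 in quadriceps and 2 in brown fat (Atg14 and Wipi2), 13.5% and 5.41% of members against 4.41% and 5.40% of all genes. At an unadjusted p under 0.01, 1 member of 4 was left in quadriceps. The share of all genes at 0.01 was not computed, so this count has no background beside it. For the difference between tissues, 3 members had an unadjusted p under 0.05 with robust scaling and 3 with the brown fat signs turned back, against 1. The share of all genes in that comparison was not computed at these 2 settings. The counts are therefore not read as a result about the members.

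Read the other way, the tables give medians of 0.029 in quadriceps and 0.033 in brown fat. The quadriceps log2 fold changes then are -0.41 for Fyco1, -0.29 for Atg4c, 0.22 for Map1lc3b, 0.21 for Atg13, 0.17 for Atg14 and 0.21 for Gabarapl1. Those of brown fat are -0.16 for Wipi2, 0.18 for Atg14, 0.14 for Map1lc3b, 0.15 for Atg16l2, 0.11 for Nbr1 and 0.081 for Bnip3l. With the brown fat table alone read that way, the Wipi2 difference between tissues is 0.069. These follow from the turned sign alone.

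The median member level was 17.0 CPM per kb in quadriceps and 16.5 in brown fat. Without the 20 most abundant genes it was 26.3 and 19.0, and without length 51.4 and 70.2 CPM. Scaling to the median gene was chosen after seeing the data, and 21 members were then higher in brown fat, against 25 by CPM and 24 without those 20 genes. The palindrome TCACGTGA left 1 member of 5. No paired analysis was possible because the files hold no values per library, and for the same reason no replicate could be left out. Filtering the other pathway lists at a mean of 10 moved no count by over 1.5 times.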
